A study of Mus musculus with 2 samples.

Results

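The collagen genes are the 43 genes of 33696 in the count tables whose symbols have the form Col, number, a, number, with 1 further matching gene not included. The rule uses gene names alone, and the group was picked for description with earlier results of these data known. Single-nucleus RNA sequencing, which counts RNA molecules by unique molecular identifiers (UMIs) in nuclei caught in droplets, was run on mouse hippocampus from postnatal day 19. There were 2 libraries: 1 control library from Cic flox/flox mice, which carry loxP sites around parts of Cic and no Cre, and 1 library labelled knockout from Emx1-Cre; Cic flox/flox littermates. Cic encodes Capicua, a transcriptional repressor, and Emx1-Cre acts in the lineage of the dorsal telencephalon, which gives rise to excitatory neurons, astrocytes and many oligodendrocytes of the hippocampus but not to most inhibitory neurons or microglia. Each library pooled 3 mice (2 males and 1 female), 1 hippocampus from each, so both alleles of Cic were floxed in every animal and the groups differed in Cre.

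Collagens are trimers of chains wound into a triple helix. Fibrillar collagens assemble into fibres, collagen IV forms the sheet of basement membranes, collagen VI forms beaded filaments, fibril-associated collagens decorate fibres, and transmembrane collagens are anchored in the cell surface and can be shed. In the brain most fibrillar collagen lies in the meninges and around vessels, while neurons and glia make several of the other types, among them collagen XIX and XXV chains linked to synapse formation and axon growth.

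Because there was 1 library per group, no test between the groups was possible, and a difference between the libraries cannot be told apart from a difference between the pools. Levels are the summed UMIs of a gene per 1000000 UMIs of the class (CPM), ratios are log2 of the knockout-labelled over the control CPM with 0.5 UMI added to each sum, and bracketed ranges are exact 95% intervals that cover counting error only. Female and male nuclei were told apart by their sex-chromosome transcripts, and ratios are also given for each sex alone, which rests on 1 female and 2 male mice per library. These are not replicates of the groups.

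The libraries held 25907 and 23207 barcodes with 314453640 and 252995761 UMIs, of which 21780 control and 20539 knockout-labelled nuclei were used. They shared 175 barcode sequences. Of 38 clusters, 32 were named from marker genes, and 16 classes held at least 50 nuclei in each library. Cic itself was not lower under the knockout label in the main excitatory classes. It was at 9.20 against 12.8 CPM in dentate granule-like nuclei, 6.58 against 11.96 in CA1-like and 6.97 against 12.2 in CA3-like. Its CPM was lower only in inhibitory-like (9.80 against 9.60, -0.03) and microglia-like nuclei (25.6 against 24.4, -0.06), with both intervals including 0. Where the deleted exons lie relative to the counted reads is not given in the sources used here, so this count does not check the labels, and each direction below is that of the library as labelled.

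The collagen IV genes Col4a1 and Col4a2 are transcribed away from each other, and their promoter sequences are shown because their start sites lie 21 bases past each other and both genes were tested in the same 15 classes. The windows are from RefSeq (build GRCm38.p6, 250 bases before to 50 after the start, 5′ to 3′ on the gene's strand), with chr8:11312777-11313076 on the minus strand for Col4a1 and chr8:11312555-11312854 on the plus strand for Col4a2. Capitals mark the 78 bases that both windows hold, read on opposite strands.
Col4a1: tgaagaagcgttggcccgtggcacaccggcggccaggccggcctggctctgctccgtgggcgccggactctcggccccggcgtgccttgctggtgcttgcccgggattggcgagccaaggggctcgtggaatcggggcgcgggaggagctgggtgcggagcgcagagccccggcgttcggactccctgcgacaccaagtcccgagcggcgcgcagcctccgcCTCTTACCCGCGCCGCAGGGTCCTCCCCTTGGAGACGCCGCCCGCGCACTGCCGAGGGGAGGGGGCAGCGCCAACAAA
Col4a2: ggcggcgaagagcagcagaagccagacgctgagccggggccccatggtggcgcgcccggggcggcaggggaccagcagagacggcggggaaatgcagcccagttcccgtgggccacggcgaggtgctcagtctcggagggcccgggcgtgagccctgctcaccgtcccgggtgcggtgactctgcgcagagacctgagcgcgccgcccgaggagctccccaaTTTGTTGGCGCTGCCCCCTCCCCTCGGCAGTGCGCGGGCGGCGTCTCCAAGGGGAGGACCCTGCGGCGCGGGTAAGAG
The shared bases are 73.1% G or C. Col6a1 and Col6a2, which encode 2 chains of collagen VI and were both higher in CA1-like nuclei of the library labelled knockout, lie on the same strand of chromosome 10 and have separate windows, chr10:76725995-76726294 and chr10:76623355-76623654, both on the minus strand and the latter 1 of 2 for Col6a2. Capitals mark the GC box GGGCGG on either strand, which is a binding sequence of Sp1-type factors and which 35.7% of all 32851 windows hold.
Col6a1: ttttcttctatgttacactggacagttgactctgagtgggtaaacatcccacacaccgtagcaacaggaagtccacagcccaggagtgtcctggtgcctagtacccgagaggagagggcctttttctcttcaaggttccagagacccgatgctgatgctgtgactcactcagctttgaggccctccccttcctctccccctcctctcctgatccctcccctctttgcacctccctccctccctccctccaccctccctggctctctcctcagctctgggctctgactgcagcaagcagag
Col6a2: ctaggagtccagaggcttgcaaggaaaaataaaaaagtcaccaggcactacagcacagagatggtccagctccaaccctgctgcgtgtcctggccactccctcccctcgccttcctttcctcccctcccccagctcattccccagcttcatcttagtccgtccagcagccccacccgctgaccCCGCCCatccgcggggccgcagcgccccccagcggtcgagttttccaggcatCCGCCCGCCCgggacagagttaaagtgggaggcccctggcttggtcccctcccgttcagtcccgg
The Col6a2 window held 3 such boxes, 2 of them overlapping, and the Col6a1 window held 0. The 8-base sequences that Capicua is known to bind (TCAATGAA, TCAATGGA, TGAATGAA and TGAATGGA, both strands) were found in 0 of the 35 collagen genes with a window, beside 4.45% of all 27025 genes, and 8 members had no window. That count says only that these letters are not in these windows.

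At the level of classes, 40 of the 43 members reached 20 UMIs over both libraries in at least 1 class, and Col8a2, Col10a1 and Col17a1 did so in none. Of 688 pairs of a member and a class, 327 reached that minimum, and 40 of those were at least 2-fold apart, 26 with the higher and 14 with the lower level under the knockout label, beside 4.14% of the 218677 tested pairs of any gene and a class. A rule of at least 50 UMIs in the higher library and the same direction in female and male nuclei left 20 pairs over 16 members. The share of all genes that pass this stricter rule is not given here, so these pairs are a selection for description. In 16 of them the knockout-labelled value was the higher, and in 4 it was the lower.

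**Figure D1:**
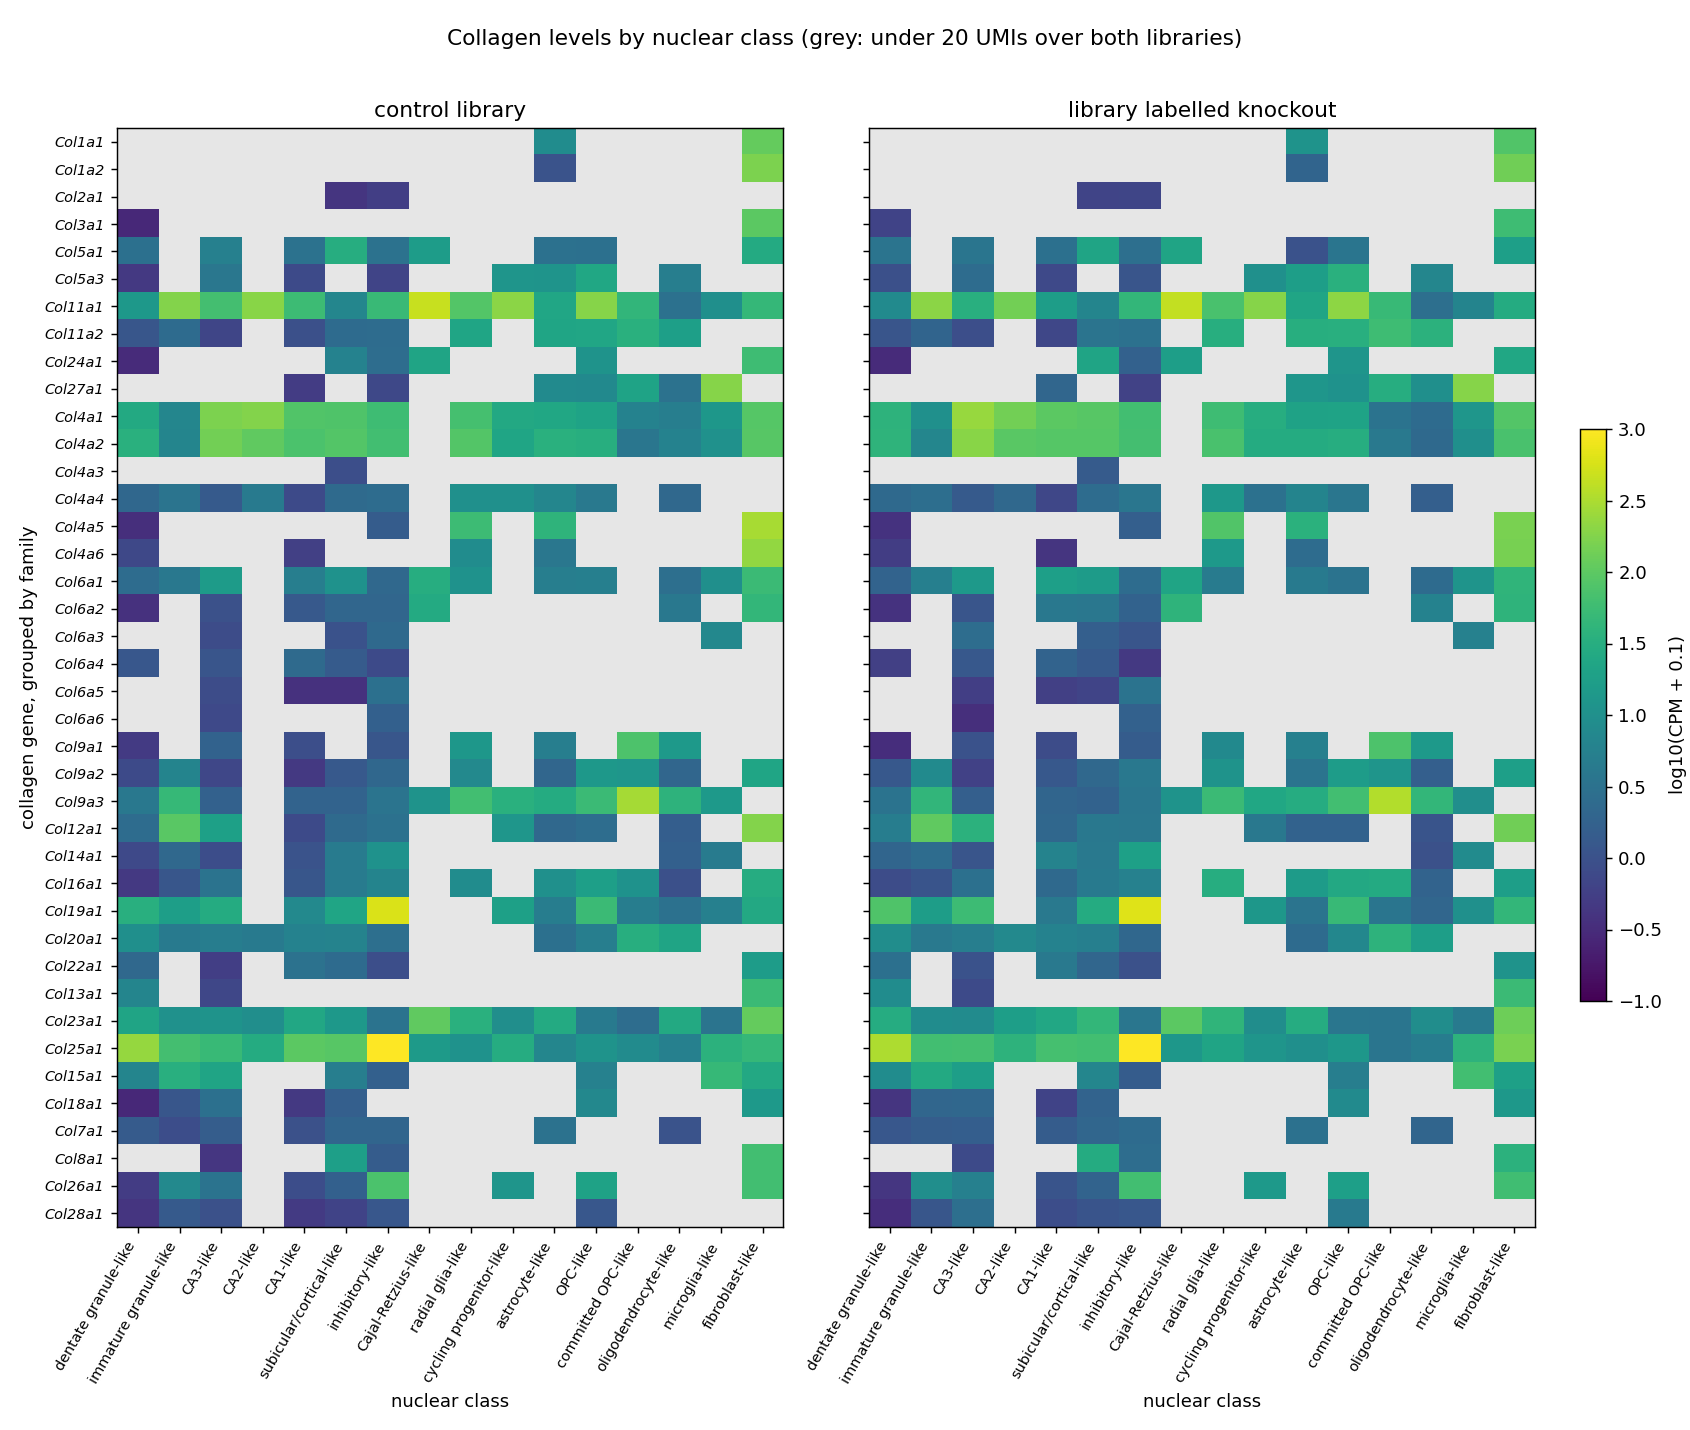
Colour gives log10 of the CPM plus 0.1 of 40 collagen genes (rows, grouped by family) in 16 nuclear classes (columns), with the control library at left and the library labelled knockout at right. Grey marks pairs under 20 UMIs. The pattern over classes is alike in both panels, with Col25a1 and Col19a1 brightest in inhibitory-like nuclei and Col1a1, Col1a2 and Col3a1 above 50 CPM in fibroblast-like nuclei.

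Each class is read against the share of all its tested genes that were at least 2-fold apart. In CA1-like nuclei 9 of 28 tested members were at least 2-fold apart (32.1%), beside 7.68% of 16983 genes, with 8 higher and 1 lower, and the members' median log2 ratio was 0.27 beside 0.11 for all genes. In cluster 4 alone (1713 and 1291 nuclei), the main cluster of the class, the count was 4 of 24, 2 in each direction (background 7.14%). At the coarser clustering it was also 4 of 24 (background 7.13%). The CA1-like class there held 1719 and 1298 nuclei, nearly those of cluster 4, so it is not a separate check. Oligodendrocyte-like nuclei had 6 of 20, 3 higher and 3 lower (background 5.76%). With called doublets kept they had 9 of 38, with 9 higher and 0 lower (background 3.8%). Dentate granule-like nuclei had 6 of 31 (19.4%, background 5.71%) and CA3-like nuclei 4 of 31 (12.9%, background 4.69%). In cluster 8 alone, which held 872 of 948 control and 763 of 878 knockout-labelled CA3-like nuclei, the count was 0 of 26 (background 4.89%). The share was 3 of 30 in subicular or cortical excitatory-like nuclei (background 4.76%), 3 of 11 in cycling progenitor-like (background 2.97%), 2 of 13 in committed oligodendrocyte precursor-like (background 3.26%) and 2 of 14 in radial glia-like nuclei (background 3.92%). In fibroblast-like nuclei it was 2 of 24, near the background of 7.76%. Inhibitory-like nuclei had 1 of 33 (background 1.71%) but 7 of 28 in male nuclei alone (background 1.96%), 5 higher and 2 lower, and 1 of 18 in female nuclei (background 3.17%). The share was 1 of 23 in astrocyte-like (background 2.06%) and 1 of 22 in oligodendrocyte precursor-like nuclei (background 2.05%). No member was 2-fold apart among 20 in immature dentate granule-like nuclei (background 2.17%), 12 in microglia-like (background 2.26%), 8 in Cajal-Retzius-like (background 4.27%) and 7 in CA2-like nuclei (background 5.89%). Many members have few UMIs, and with a minimum of 50 UMIs and 10 CPM in the higher library the counts were 2 of 6 in CA1-like (background 4.07%), 2 of 5 in oligodendrocyte-like (3.26%), 1 of 6 in dentate granule-like (3.06%) and 0 of 9 in CA3-like nuclei (1.82%). Sums of other classes' markers also moved with these classes. In CA1-like nuclei the CA3 list went from 352 to 440 CPM (5 of 9 genes higher) and the inhibitory list from 32.2 to 44.1 (7 of 10), and the dentate granule list from 76.2 to 109 (3 of 8), mostly through Dock10 (32.4 to 73.9). In CA3-like nuclei the CA1 list went from 134 to 210 (6 of 8), mostly through Man1a (119 to 193), and the oligodendrocyte list from 108 to 74.5 (0 of 8). In oligodendrocyte-like nuclei the CA3 list went from 163 to 273 (6 of 9), mostly through Nectin3 (49.9 to 142), and the fibroblast list from 45.2 to 20.4 (4 of 9), mostly through Mgp (38.1 to 10.8). The dentate granule list there went from 5153 to 3810 (5 of 8), mostly through Dock10 (4192 to 2956). In dentate granule-like nuclei the CA3 list went from 300.1 to 196 (4 of 9), mostly through Cpne4 (228 to 122), the inhibitory list from 1624 to 2054 (4 of 10) and the microglia list from 87.2 to 72.8 (0 of 8, none of them at 0). No gene of these neuronal and oligodendrocyte lists was at 0, while of the fibroblast list in oligodendrocyte-like nuclei Igf2 was at 0 in both libraries, Slc6a13 in the control and Bnc2 in the knockout-labelled one. Their part in the results was not tested.

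Among fibrillar collagens, Col11a1 was lower in CA1-like and CA3-like pyramidal neurons of the library labelled knockout. Col11a1 encodes a chain of collagen XI, which sets the diameter of collagen fibrils. CA1-like nuclei held 2055 control and 475 knockout-labelled UMIs of it, or 55.9 and 16.9 CPM, a log2 ratio of -1.72 (-1.87 to -1.58). The ratio was -2.03 in female and -1.60 in male nuclei. In CA3-like nuclei it went from 64.8 to 32.9 CPM (-0.98), just inside 2-fold, with -1.36 in female and -0.97 in male nuclei. CA2-like nuclei had 195 and 140 CPM (-0.48) and dentate granule-like nuclei 13.6 and 8.19 (-0.72). Both libraries had the highest Col11a1 level in Cajal-Retzius-like nuclei, at 456 and 434 CPM (-0.07, interval -0.25 to 0.11), and the immature dentate granule-like level was 180 and 201 CPM (0.16). Oligodendrocyte precursor-like, inhibitory-like and astrocyte-like nuclei had ratios of 0.16, -0.22 and -0.05. The difference between classes was not tested.

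Col24a1, a fibrillar collagen gene of developing bone and cornea, was higher in subicular or cortical excitatory-like nuclei, with 152 and 506 UMIs, or 5.83 and 21.8 CPM (1.90, 1.64 to 2.17). Its ratio was above 1 in each of the 3 clusters of that class that reached 50 nuclei per library: 2.22 in cluster 11, 1.80 in cluster 17 and 1.18 in cluster 19 (14 and 28 UMIs, 0.23 to 2.25). The remaining cluster, 36, held 3 control and 63 knockout-labelled nuclei and no Col24a1 UMI. In this class the inhibitory list went from 158 to 119 CPM (3 of 10 higher), the CA3 list from 720 to 838 (5 of 9) and the fibroblast list from 19.5 to 13.6 (3 of 9, with Igf2 at 0 in both libraries), and their part in the results was not tested. In fibroblast-like nuclei Col24a1 had 28 UMIs in each library over 57 and 132 nuclei (-1.23), in the opposite direction.

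Col27a1, which encodes a fibrillar collagen of cartilage, had its highest level in microglia-like nuclei, where the libraries were alike at 188 and 190 CPM (0.02, -0.16 to 0.19). It was higher in oligodendrocyte-like nuclei, at 29 and 78 UMIs (3.08 and 9.80 CPM, 1.65), with 1.65 in cluster 9 and 2.33 in cluster 20 (3 and 21 UMIs, 0.77 to 4.90). Col11a2, the partner chain of Col11a1 in collagen XI, was also higher there, with 169 and 290 UMIs (18.0 and 36.5 CPM, 1.02), and at 1.02 and 1.46 in the same clusters. Its ratio was between 0.49 and 0.76 in the astrocyte-like, radial glia-like, oligodendrocyte precursor-like and committed oligodendrocyte precursor-like nuclei and 0.24 in inhibitory-like nuclei, so the level was the higher in the library labelled knockout in all 5 macroglial classes tested. The radial glia-like interval of -0.30 to 1.26 includes 0, and the oligodendrocyte-like ratio was 0.80 in female nuclei and 0.71 in nuclei thinned to equal depth.

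The interstitial fibrillar genes were highest in fibroblast-like nuclei, and none was 2-fold apart there. Col1a1, Col1a2 and Col3a1, which encode the main collagens of connective tissue, had 115, 165 and 96.7 CPM in control fibroblast-like nuclei and 81.4, 135 and 57.4 CPM in the knockout-labelled ones. Col5a1, a chain that nucleates fibrils, was highest in subicular or cortical excitatory-like nuclei, at 31.3 and 21.6 CPM (-0.54). Its lowest ratio over 9 tested classes was -1.60, in another class.

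Of the basement membrane genes, Col4a1 and Col4a2 were counted in all neuronal classes except Cajal-Retzius-like nuclei, highest in CA3-like and CA2-like nuclei. In CA3-like nuclei Col4a1 had 3928 and 4902 UMIs, or 163 and 245 CPM (0.59), and Col4a2 had 3416 and 3889, or 142 and 194 CPM (0.46). The ratios were 0.53 and 0.20 in dentate granule-like, 0.27 and 0.28 in CA1-like, and 0.11 and 0.09 in inhibitory-like nuclei. In CA2-like nuclei, whose control level of Col4a1 was the highest of its classes at 182 CPM, they were -0.40 and -0.20. None of these neuronal values was 2-fold. In oligodendrocyte-like nuclei both were lower in the library labelled knockout, with 48 and 19 UMIs of Col4a1 (-1.07) and 54 and 18 of Col4a2 (-1.32), and the Col4a2 value was lost when called doublets were kept (0.06) and under 2-fold in male nuclei (-0.86). With free RNA subtracted, at an estimated 3.82% and 4.35% of the UMIs of the class, it was -5.75, which leaves almost no knockout-labelled signal and gives no size. By cluster, Col4a2 was at -1.55 in cluster 9 (48 and 11 UMIs) and -0.09 in cluster 20 (6 and 7 UMIs). Col4a1 was at -0.73 (39 and 16 UMIs, -1.70 to 0.115) and -1.73 (9 and 3 UMIs, -4.4 to 0.125) in the same clusters, and both intervals include 0. In the endothelial-like nuclei, too few for a comparison with 42 and 41, Col4a1 had 57 and 58 UMIs (346 and 489 CPM) and Col4a2 58 and 47 (352 and 396 CPM). Endothelial markers summed to at most 3.05 CPM in either library of the dentate granule-like, CA1-like, CA3-like and oligodendrocyte-like classes, and Cldn5 was at 0 in both libraries of the CA3-like class. In that class, where both collagen IV genes were higher, the endothelial list went from 1.95 to 3.05 CPM with 6 of 8 genes higher, and its part in the result was not tested. Col4a1 and Col4a2 overlap on opposite strands in the GENCODE vM21 annotation, and whether the counting used strand is not given in the sources used here, so the split of reads at their shared start is uncertain.

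**Figure D2:**
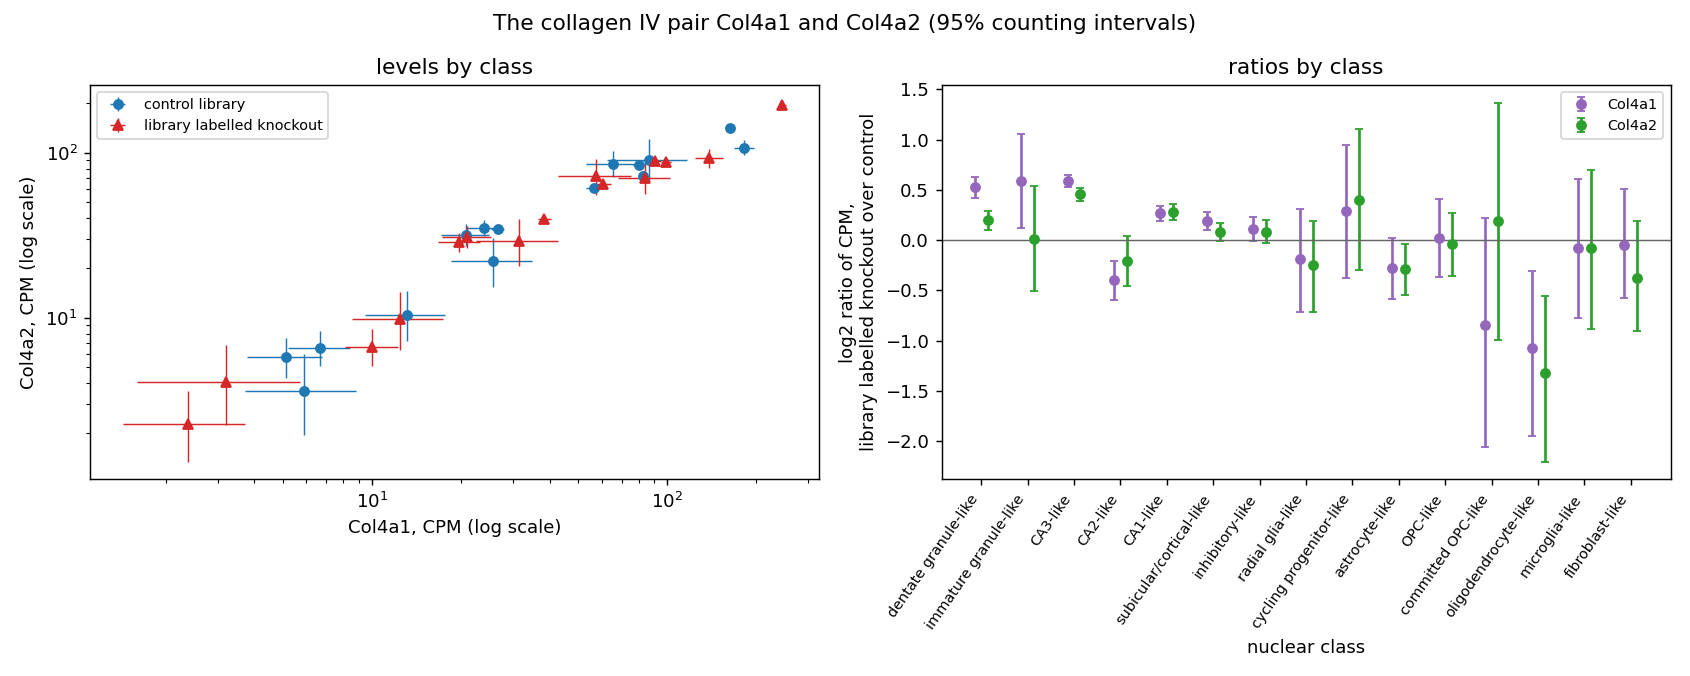
The left panel plots Col4a2 against Col4a1 CPM (log scales) in 15 classes for the control library (circles) and the library labelled knockout (triangles), and the right panel their log2 ratios by class. Bars are 95% counting intervals. Both genes sit above 140 CPM in CA3-like nuclei and below 6 CPM in oligodendrocyte-like nuclei, and their ratio intervals overlap in 13 of 15 classes, the exceptions being dentate granule-like and CA3-like nuclei.

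Among the other collagen IV chains, Col4a5 and Col4a6 were highest in fibroblast-like nuclei and Col4a4 in radial glia-like nuclei (10.2 and 13.5 CPM), while Col4a3 reached the minimum only in subicular or cortical excitatory-like nuclei. Col4a5 and Col4a6, X-linked neighbours that are also transcribed away from each other, had 302 and 228 CPM in the control and 156 and 149 CPM in the knockout-labelled fibroblast-like nuclei (-0.95 and -0.61). Those 2 values rest on 150 and 182 UMIs of Col4a5 and 113 and 174 of Col4a6 over 57 and 132 nuclei. The mural list of that class went from 300.1 to 162 CPM (2 of 8 higher, with Kcnj8 and Acta2 at 0 in both libraries) and its own fibroblast list from 2069 to 1729 (3 of 9 higher), and their part in the result was not tested.

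Of the 4 collagen VI genes tested in CA1-like nuclei, Col6a1 and Col6a2 were at least 2-fold higher (background 7.68%), Col6a5 was at 0.75 on 10 and 13 UMIs and Col6a4 at -0.37 on 85 and 50. Col6a1, which encodes the α1 chain, had 183 and 513 UMIs, or 4.98 and 18.3 CPM (1.87, 1.63 to 2.13), with 2.10 in female and 1.68 in male nuclei. In CA3-like nuclei it was at 15.5 and 14.2 CPM (-0.13) and in subicular or cortical excitatory-like nuclei at 10.9 and 15.6 CPM (0.52). The lowest Col6a1 ratio over its 13 tested classes was -1.15, in a class other than these. Over all nuclei Col6a1 had 4236 and 4556 UMIs. It was the first of the leading genes of cluster 14, which had no name and held 359 control and 394 knockout-labelled nuclei. Col6a2, the α2 chain, had 45 and 111 UMIs in CA1-like nuclei, or 1.22 and 3.95 CPM (1.68), with 2.45 in female and 0.90 in male nuclei and 0.76 with called doublets kept. Col6a3, the α3 chain, was at 0.75 and 2.55 CPM in CA3-like nuclei from 18 and 51 UMIs (1.75), and all but 4 of those UMIs came from the small cluster 27. Col6a4 was lower in dentate granule-like nuclei, with 65 and 20 UMIs (1.12 and 0.48 CPM, -1.21). Its ratio was -1.59 in female and -0.69 in male nuclei and -0.96 in nuclei thinned to equal depth. Of 36 pairs tested in the family 8 were 2-fold apart, 4 in each direction, and 4 of the 8 had fewer than 50 UMIs in the higher library. Over all genes and classes 4.14% of pairs were 2-fold apart. Fibroblast markers, whose cells also had collagen VI (52.4 and 42.0 CPM of Col6a1), summed in CA1-like nuclei to 27.6 CPM in the control and 22.3 in the knockout-labelled library, with 5 of 9 higher and Igf2 at 0 in both. The mural list went from 2.67 to 3.70 CPM, mostly through Rgs5 (0.299 to 1.495), with 2 of 8 higher and Kcnj8 at 0 in both. The part of these lists in the results was not tested.

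The fibril-associated Col19a1 was the best counted of the members at least 2-fold higher. Its product, collagen XIX, is made by interneurons and is known to take part in the formation of their synapses. Dentate granule-like nuclei held 1899 control and 3328 knockout-labelled UMIs of it, or 32.7 and 79.3 CPM (1.28, 1.20 to 1.36), with 1.00 in female and 1.55 in male nuclei. In CA3-like nuclei it went from 28.8 to 55.4 CPM (0.94). Inhibitory-like nuclei had the highest level, at 585 and 645 CPM (0.14). CA1-like nuclei went the other way, from 7.48 to 3.99 CPM (-0.90), with -1.93 in cluster 4 but 0.705 in cluster 21. The inhibitory marker list summed to 1624 and 2054 CPM in dentate granule-like nuclei, with 4 of 10 genes higher in the library labelled knockout and none at 0, and Adarb2 made up 1515 and 1902 of it. Gad2 and Slc32a1, which define inhibitory neurons, were at 2.65 and 1.62 CPM and at 2.69 and 2.02 CPM there, lower where Col19a1 was higher. The part of these genes in the result was not tested.

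**Figure D3:**
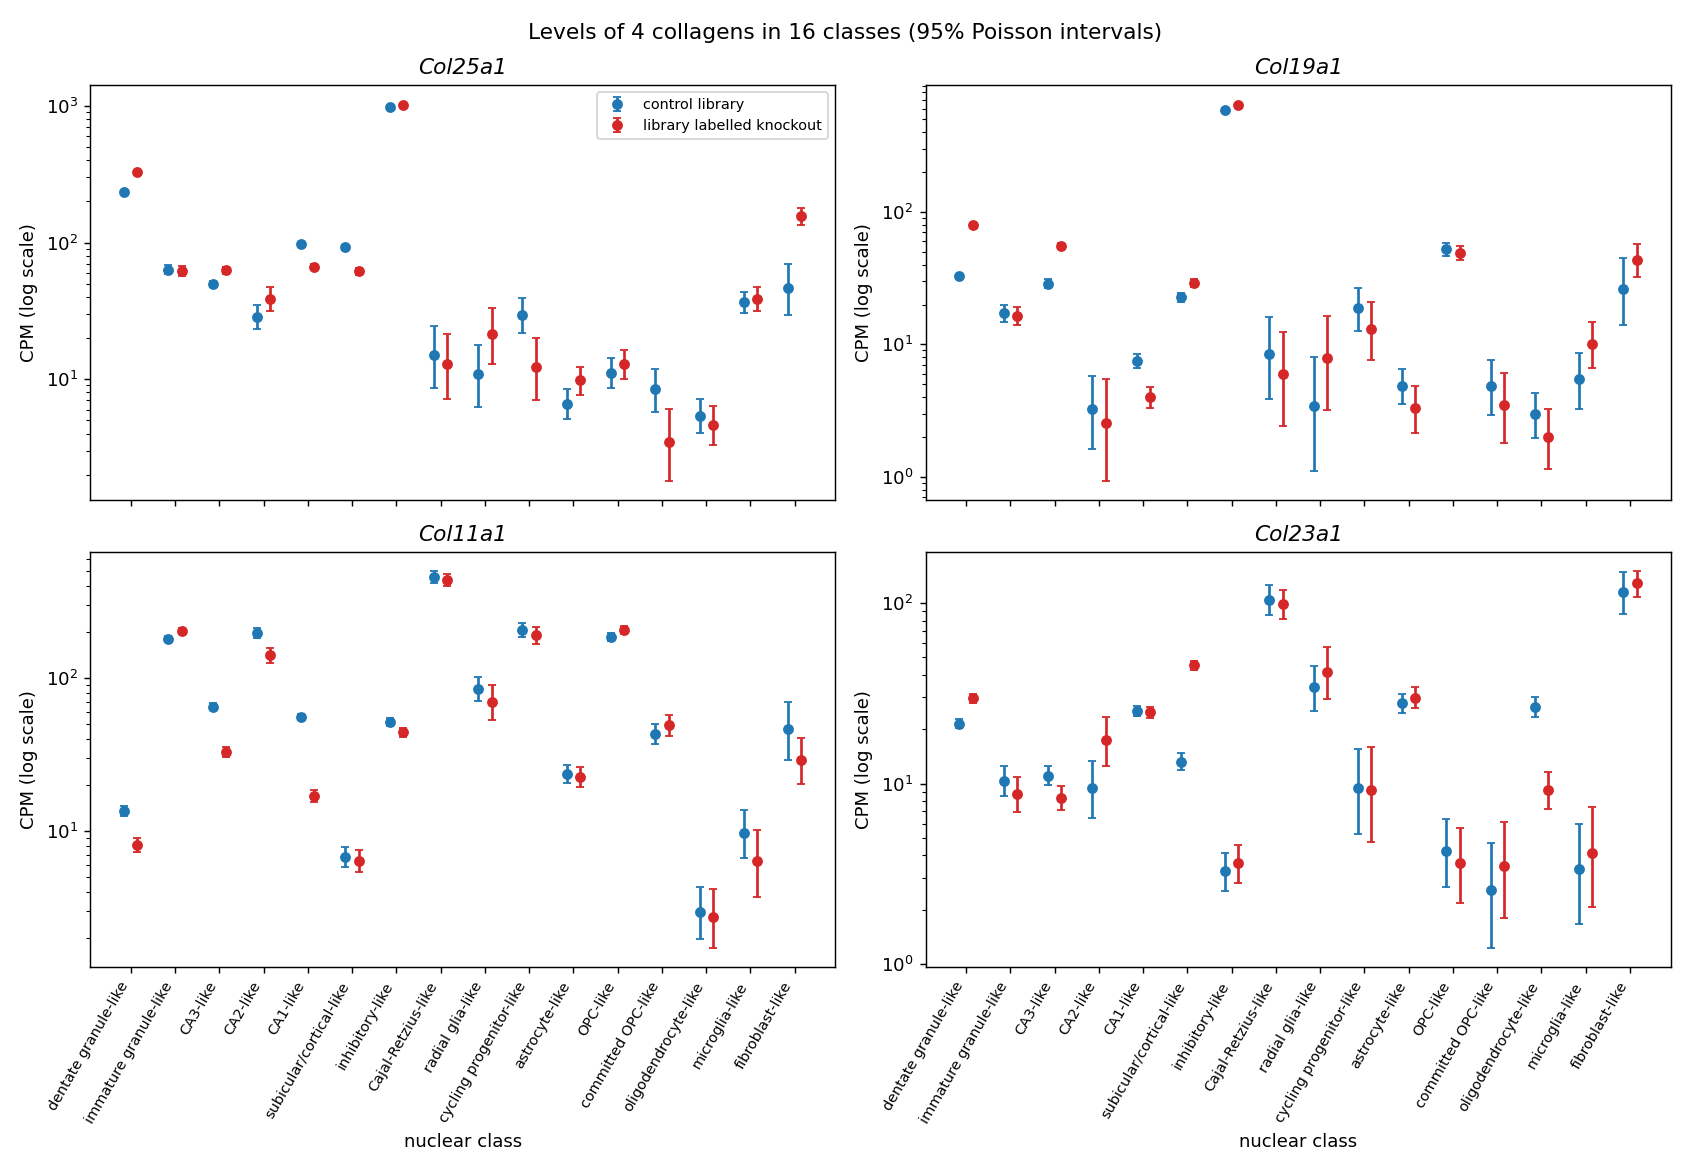
CPM (log scale) of Col25a1, Col19a1, Col11a1 and Col23a1 in 16 nuclear classes, with the control library in blue, the library labelled knockout in red and 95% Poisson intervals as bars. Col19a1 separates in dentate granule-like (32.7 against 79.3) and CA3-like nuclei, Col11a1 in CA1-like (55.9 against 16.9) and CA3-like nuclei, and Col23a1 moves in opposite directions in oligodendrocyte-like and subicular or cortical excitatory-like nuclei.

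Col12a1 and Col14a1 encode collagens XII and XIV, which bind the surface of fibrils. Col14a1 was higher in dentate granule-like nuclei (39 and 82 UMIs, 0.67 and 1.95 CPM, 1.53) and in CA1-like nuclei (35 and 170 UMIs, 0.95 and 6.05 CPM, 2.65; 0.83 with called doublets kept and 0.31 at the coarser clustering). Inhibitory-like nuclei had its highest level, at 10.7 and 18.6 CPM (0.80). Col12a1 was at 18.8 and 36.8 CPM in CA3-like nuclei (0.97), at 2.51 and 4.81 in dentate granule-like nuclei (0.94) and at 0.68 and 2.03 in CA1-like nuclei (1.56). The CA1-like value was 2.60 in female and 0.81 in male nuclei, 0.60 with called doublets kept and 0.19 at the coarser clustering. Immature dentate granule-like nuclei had more of it than these neurons, at 93.7 and 107 CPM (0.20). The lowest Col12a1 ratio over its 11 tested classes was -1.61, in none of the classes just given. Col16a1, a collagen that links fibrils to other matrix, was higher in committed oligodendrocyte precursor-like nuclei, at 43 and 94 UMIs (10.97 and 27.3 CPM, 1.31), with 1.07 in cluster 16, 2.08 in cluster 24 and, for the class, 0.73 with called doublets kept and 0.68 in nuclei thinned to equal depth. In that class the oligodendrocyte list went from 11580 to 9914 CPM (0 of 8 higher), the inhibitory list from 5251 to 6147 (7 of 10, with Lhx6 at 0 in the knockout-labelled library) and the microglia list from 90.8 to 124 (6 of 8), and their part in the result was not tested. Its difference in CA1-like nuclei (39 and 62 UMIs, 1.05) was 0.02 and 0.36 within the 2 clusters of that class. Annotated genes overlap Col12a1, Col14a1, Col24a1 and Col6a4 on the opposite strand, and D530037P16Rik overlaps Col24a1 on the same strand, where counting by strand would not separate their reads. The collagen IX gene Col9a3 marked committed oligodendrocyte precursor-like nuclei in both libraries, at 290 and 344 CPM (0.24), and none of its 14 tested classes was 2-fold apart. Col9a1 was highest in the same class, at 75.8 and 77.5 CPM, as was Col20a1, at 31.9 and 38.6 CPM, and neither was 2-fold apart in any tested class. Col9a2 was 2-fold apart in CA1-like nuclei alone of its 12 tested classes (13 and 33 UMIs, 1.70).

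Of the transmembrane collagens, Col25a1 and Col23a1 were tested in all 16 classes. Col25a1 encodes collagen XXV, which is needed for motor axons to grow into muscle. It was highest in inhibitory-like nuclei, at 978 and 1023 CPM (0.06, 0.04 to 0.09). It was higher in dentate granule-like nuclei, at 234 and 327 CPM (0.48), and lower in CA1-like nuclei, at 97.5 and 66.1 CPM (-0.56), and in subicular or cortical excitatory-like nuclei, at 92.2 and 61.5 CPM (-0.58), all of them under 2-fold. By cluster, Col25a1 was at -0.39 in cluster 4 and 0.55 in cluster 21 of the CA1-like class. In the subicular or cortical class it was at -0.35, 0.32 and -0.98 in clusters 11, 17 and 19. It was 2-fold lower in cycling progenitor-like (47 and 16 UMIs, -1.24) and committed oligodendrocyte precursor-like nuclei (33 and 12 UMIs, -1.24). The value of 23 and 182 UMIs in fibroblast-like nuclei (46.3 and 156 CPM, 1.72) rests on 57 and 132 nuclei, with 0 UMIs in control female and 1 in control male nuclei, and the ratio was 0.22 with called doublets kept. The 10 inhibitory markers moved with it, from 270 to 385 CPM with 5 of 10 higher, Erbb4 from 74.5 to 256 CPM, Gad2 at 4.03 and 4.29 CPM, and Dlx6os1 and Lhx6 at 0 in the control, and the 9 CA3 markers stood at 1394 and 1284 CPM, with Iyd at 0 in the control. The oligodendrocyte list went from 234 to 320 CPM with 7 of 8 higher, Mbp from 26.2 to 111 CPM, St18 from 6.04 to 27.4 CPM, and Opalin at 0 in the control. Their part in the result was not tested.

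Col23a1, which encodes a transmembrane collagen that is shed from the cell surface, went in opposite directions in 2 classes. It was lower in oligodendrocyte-like nuclei, with 250 and 73 UMIs (26.6 and 9.18 CPM, -1.53), at -2.83 in female and -1.13 in male nuclei, and at -0.70 with called doublets kept. It was higher in subicular or cortical excitatory-like nuclei, with 345 and 1046 UMIs (13.2 and 45.1 CPM, 1.77), at 1.74 in female and 1.48 in male nuclei. Cluster 11, led by Fn1, held 287 and 875 of the subicular or cortical UMIs, at 20.1 and 80.1 CPM (1.99), while clusters 17 and 19 had 0.23 and -0.13. Cluster 36, with 3 control and 63 knockout-labelled nuclei, held 10 and 121. The class's own markers summed to 4246 and 4157 CPM.

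**Figure D4:**
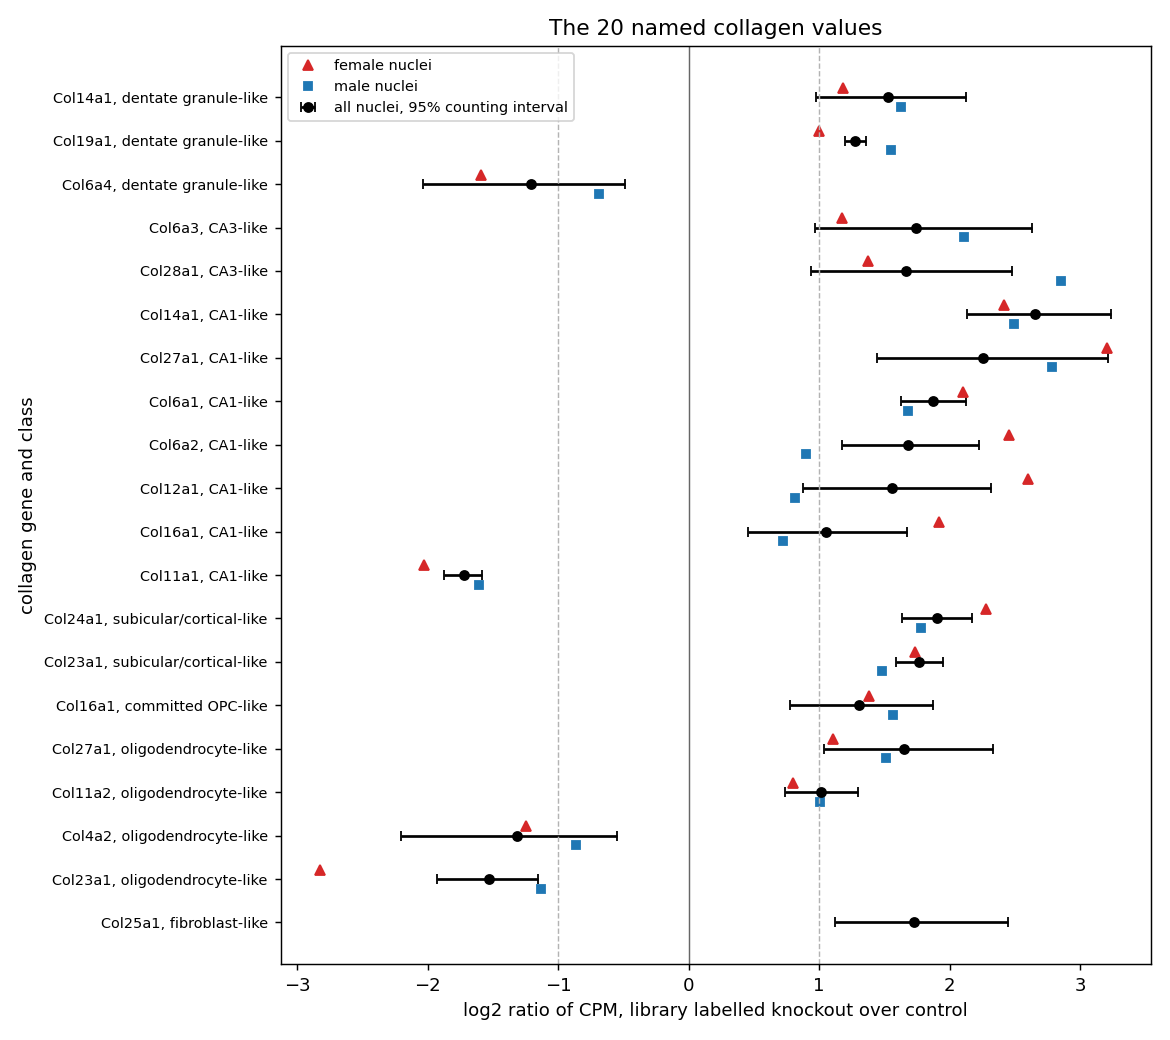
Log2 ratio of CPM (library labelled knockout over control) of the 20 named collagen and class pairs, with black points for all nuclei and bars for 95% counting intervals, triangles for female and squares for male nuclei, and dashed lines at 2-fold. Points for Col25a1 by sex are left out because the control counts were 0 and 1. Col11a1 in CA1-like, Col6a4 in dentate granule-like and Col23a1 and Col4a2 in oligodendrocyte-like nuclei lie left of -1, and the other 16 pairs lie right of 1.

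Several classes were made of clusters whose shares differed between libraries, and the ratios differed among them. Dentate granule-like nuclei fell mostly in cluster 0 in the control (76.3%, led by Trpc6, Chst9 and Dsp) and in cluster 3 in the library labelled knockout (50.4%, with Bmp6, Cdh9 and Synpr among its leading genes). The 8 dentate granule markers summed to 2451 and 1719 CPM over the class, with 2 of 8 higher in the library labelled knockout and none at 0. Within cluster 0, Col19a1 was at 25.1 and 88.1 CPM (1.81, 1.71 to 1.92), and within cluster 3 at 64.7 and 68.6 CPM (0.09, -0.05 to 0.22). Col25a1 had the same order, with 238 and 395 CPM in cluster 0 (0.73) and 222 and 243 in cluster 3 (0.13). So did Col14a1, at 1.95 in cluster 0 (28 and 55 UMIs) and 0.56 in cluster 3 (11 and 27 UMIs, -0.46 to 1.76). Col11a1 had the reverse, with -0.32 in cluster 0 and 42.6 against 12.1 CPM in cluster 3 (-1.82). The clusters were found on both libraries without the collagen genes, and a shift of nuclei between clusters cannot be told apart from a change within nuclei.

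CA1-like nuclei were 1713 and 1291 nuclei of cluster 4 and 176 and 355 of cluster 21. Cluster 21 was led by Cpa6, C1qtnf7 and Unc13c, with 3 CA1 markers raised and none among its 10 leading genes. Within cluster 4, Col11a1 was at 61.8 and 17.9 CPM (-1.79), Col6a1 at 3.92 and 16.1 CPM (2.03), Col6a2 at 0.83 and 2.66 CPM (1.66) and Col19a1 at 7.68 and 2.00 CPM (-1.93). Col14a1 had only 20 and 16 UMIs in cluster 4 (0.31) and 15 and 154 in cluster 21 (2.61), and Col12a1 15 and 11 in cluster 4 (0.20) and 10 and 46 in cluster 21 (1.44). Col27a1 had 0 and 3 UMIs in cluster 4 and 15 and 53 in cluster 21 (1.08). Most knockout-labelled UMIs of Col14a1, Col12a1 and Col27a1 in the class were in cluster 21, while Col11a1, Col6a1 and Col6a2 were at least 2-fold apart within cluster 4. In cluster 21 Col11a1 was at 0.24 and Col6a1 at 0.93. Col19a1 there was at 0.705 (26 and 70 UMIs, 0.05 to 1.43), with the sign opposite to that in cluster 4.

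**Figure D5:**
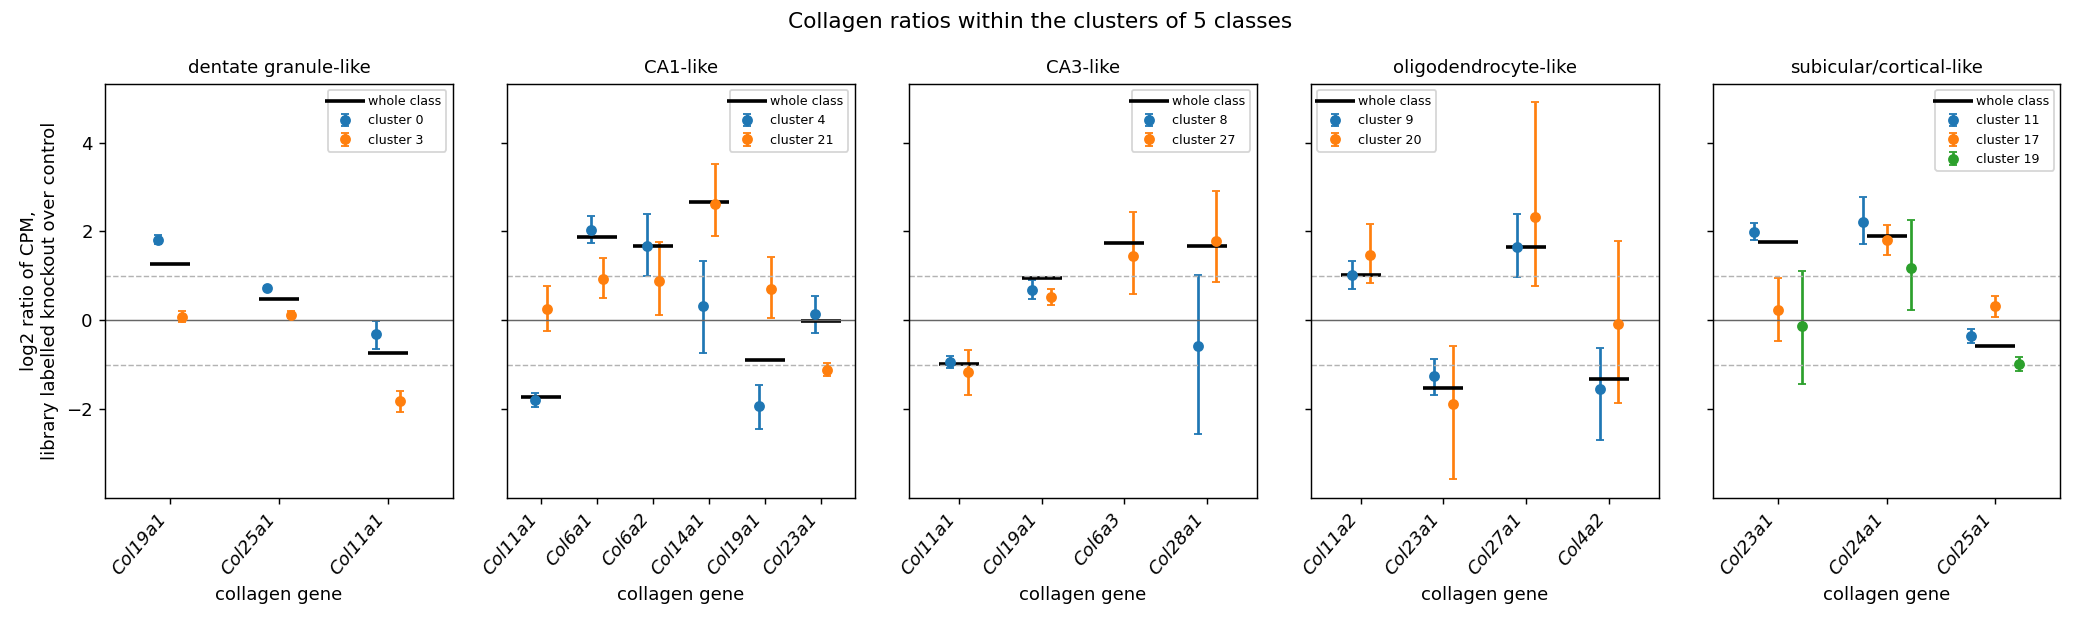
Log2 ratio of CPM (library labelled knockout over control) of selected collagens within the clusters of 5 classes, with coloured points and 95% counting intervals for clusters of at least 50 nuclei in each library and black dashes for the whole class. Col6a3 has no point in cluster 8, where the knockout-labelled library had 0 UMIs. Col19a1 is at 1.81 in cluster 0 and 0.09 in cluster 3, while both oligodendrocyte-like clusters have the same sign for Col11a2, Col23a1 and Col27a1.

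In CA3-like nuclei the main cluster 8 (872 and 763 nuclei) and the small cluster 27 (76 and 115) both had lower Col11a1 (-0.94 and -1.16) and higher Col19a1 (0.69 and 0.52). Col28a1, a collagen of peripheral nerve, had 10 and 5 UMIs in cluster 8 and 11 and 51 in cluster 27 (1.77), and the class value was 1.66. Col19a1 was at 189.8 and 272 CPM in cluster 27 and at 14.4 and 23.1 in cluster 8. Ratios of Col4a1 and Col4a2 were 0.64 and 0.51 in cluster 8 and 0.06 and -0.04 in cluster 27.

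Inhibitory-like nuclei, most of which arise outside the Emx1 lineage, had 33 tested members, and the members' median log2 ratio was 0.11 beside 0.05 for all genes. The 6 best counted there were Col25a1, Col19a1, Col26a1, Col4a2, Col4a1 and Col11a1, with ratios of 0.06, 0.14, -0.23, 0.09, 0.11 and -0.22. The 1 member 2-fold apart was Col6a3 (49 and 20 UMIs, -1.08), with opposite signs in female and male nuclei, and in male nuclei alone 7 of 28 were 2-fold apart.

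The remaining members had few 2-fold values. The multiplexins, whose ends can be cleaved into antiangiogenic fragments, were tested in 15 pairs with none 2-fold apart, which over so few pairs is near the background of 4.14%, as are the counts of 0 for the single genes above and below. Col15a1 was highest in microglia-like nuclei, at 47.5 and 61.3 CPM. Col8a1 and Col13a1 were highest in fibroblast-like nuclei, at 60.4 and 37.7 CPM and at 52.4 and 52.3 CPM. Col5a3 was highest in oligodendrocyte precursor-like nuclei, at 24.0 and 34.4 CPM, and its 1 value past 2-fold was in dentate granule-like nuclei (21 and 36 UMIs, 1.23). Col4a4 was 2-fold apart only in cycling progenitor-like nuclei, on 16 and 4 UMIs. Col7a1, Col18a1, Col22a1, Col2a1 and Col4a3 were 2-fold apart in no tested class, and Col6a5 and Col6a6 in 1 each, on at most 16 UMIs in either library.

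Other genes of the collagen pathway were read from 5 lists. Of 21 enzymes and chaperones of collagen synthesis, 21 were tested in CA1-like nuclei, with 3 higher and 0 lower (background 7.68%), among them Plod1 (1.69 and 6.19 CPM, 1.87), a lysyl hydroxylase. In dentate granule-like nuclei Plod1 was lower (2.86 and 1.38 CPM, -1.04). Fkbp14, a chaperone of folding collagen, was higher in oligodendrocyte-like nuclei (29.0 and 77.0 CPM, 1.41). Of 15 genes for processing and crosslinking outside the cell, 4 of 9 tested were 2-fold apart in CA1-like nuclei (3 higher and 1 lower, background 7.68%) and 4 of 9 in oligodendrocyte-like nuclei (1 higher and 3 lower, background 5.76%). Tll2, a protease of the family that trims procollagen, was at 1.09 and 16.5 CPM in dentate granule-like (3.92), at 0.57 and 5.41 in CA1-like (3.21) and at 8.54 and 62.1 in CA2-like nuclei (2.84). Bmp1, its relative, was lower in CA1-like nuclei (19.1 and 8.51 CPM, -1.16), and Adamts2, which removes the amino-terminal propeptide, was lower in oligodendrocyte-like nuclei (57.6 and 18.7 CPM, -1.62).

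Of 15 other basement membrane genes, 2 of 10 tested in dentate granule-like nuclei were 2-fold apart, both higher (background 5.71%). They were Nid2, a nidogen that links laminin to collagen IV, at 0.69 and 7.88 CPM (3.50), and Lamb3, a laminin chain, at 0.93 and 6.57 CPM (2.81). Lamb3 was higher in CA3-like nuclei too (2.16 and 7.05 CPM, 1.70), and Lama4 at a ratio of 1.81 in the subicular or cortical class. Among 14 collagen receptors, 2 of 13 tested were higher in CA3-like nuclei (background 4.69%), Ddr2 (1.25 and 4.95 CPM, 1.97) and Adgrg6 (1.96), while Adgrg6 was lower in inhibitory-like nuclei (17.1 and 7.77 CPM, -1.13). Timp3, an inhibitor of matrix metalloproteinases, was higher in 4 classes: CA1-like (28.6 and 64.8 CPM, 1.18), CA3-like (1.57), oligodendrocyte-like (1.35) and subicular or cortical excitatory-like nuclei (1.36).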

How the data were processed

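Nuclear RNA from 2 hippocampal libraries was sequenced on the 10x droplet platform. The deposited files hold UMI counts per gene and barcode, which the authors made with Cell Ranger 8.0.1 and the mm39 build, per the submitters' processing notes; the role of each is not given in the sources used here, nor is the handling of introns or strand. The count matrices were used as deposited, and there are no values from other units.

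Nuclei with at least 500 genes and at most 5% mitochondrial UMIs were kept, and doublets called by Scrublet (13.1% of control and 10.9% of knockout-labelled nuclei) were left out. Both libraries were clustered together (3000 variable genes without collagens, 30 components, 15 neighbours, Leiden resolution 1; scanpy 1.11.5, leidenalg 0.10.2, Python 3.11.15), and clusters were named from 23 marker lists. Counts were summed by library and class. A class needed 50 nuclei in each library and a gene 20 UMIs over both. Named members were at least 2-fold apart with 50 UMIs in the higher library and 1 direction in female and male nuclei, up to 8 per direction and class; other lists gave up to 3 genes per class by the same rule. The interval and ratio code was tested on simulated counts. Over the 16 classes the median nucleus had 1722.5 to 24521 UMIs, lowest in knockout-labelled microglia-like and highest in control CA3-like nuclei.

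Members and lists were chosen with earlier results of these data known. Alternatives were median-of-ratios and TMM scaling (edgeR 4.0.16), doublets kept, each sex alone, nuclei thinned to 2000 UMIs, collagens in the clustering, resolution 0.5, 2 stricter minimums and subtraction of free RNA. The largest cluster alone was added after seeing the data. Promoter windows are from RefSeq on GRCm38.p6 and gene overlaps from GENCODE vM21 (94.9% of gene identifiers matched), builds other than that of the counts, so no coordinate was joined to a count. 1 matching gene is not reported here.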

Additional observations from a re-analysis of the deposited data

Results flagged for a closer look

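Col23a1 in CA1-like nuclei had opposite signs in female and male nuclei, with log2 ratios of 1.53 and -1.16, and the difference was not tested. Within cluster 21, which held most of its UMIs, the values were -0.10 in female nuclei (29 control and 139 knockout-labelled, 107 and 101 CPM) and -1.72 in male nuclei (106 and 141, 181 and 54.8 CPM), and within cluster 4 they were 0.43 and -0.50.

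In fibroblast-like nuclei Col4a1 was at -1.15 in female and 1.51 in male nuclei, and Col4a2 at -1.52 and 1.14. The class held 18 and 57 female and 20 and 35 male nuclei, and neither difference was tested.

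Col23a1 went in opposite directions in oligodendrocyte-like nuclei (-1.53) and in subicular or cortical excitatory-like nuclei (1.77), and the difference was not tested.

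Clusters given no name held collagens that were higher in the library labelled knockout. They were Col14a1 (2.91), Col6a5 (1.35) and Col18a1 (1.30) in cluster 6, Col27a1 (3.58) and Col6a1 (1.58) in cluster 13, and Col12a1 (2.08) in cluster 14.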

How the results depend on the processing

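Over 10 other settings, 171 of the 200 values of the 20 named pairs stayed at least 2-fold in the same direction. Direction in each sex was part of the rule that named the pairs, so female and male nuclei alone do not check it. The count also holds values without a usable size (Col25a1 by sex, Col4a2 with free RNA subtracted). In the fibroblast-like class, which is 1 cluster, the largest cluster alone repeats the main value. Fewest stayed with doublets kept, 11 of 20, where Col27a1 and Col14a1 in CA1-like nuclei went to 0.14 and 0.83. In that clustering the clusters led by C1qtnf7 and Cpa6 (220 and 431 nuclei) and by Gm56610 and Myo5b (1576 and 2111) had no name. The CA1-like and dentate granule-like classes thus held other nuclei than in the main run, and the part of this in the values was not tested. The 7 pairs at least 2-fold in each of these 10 settings were Col11a1 and Col6a1 in CA1-like, Col14a1 and Col19a1 in dentate granule-like, Col23a1 and Col24a1 in subicular or cortical excitatory-like, and Col27a1 in oligodendrocyte-like nuclei. The 2 stricter minimums are not among the 10 settings. Of the 7 pairs, Col14a1 in dentate granule-like and Col27a1 in oligodendrocyte-like nuclei were under 10 CPM in both libraries, so the minimum of 10 CPM leaves them out. Of the clusters, only the largest of each class was a setting. In cluster 3 Col19a1 was at 0.09 and Col14a1 at 0.56 (-0.46 to 1.76). Col23a1 was at 0.23 and -0.13 in clusters 17 and 19, and Col11a1 and Col6a1 at 0.24 and 0.93 in cluster 21. Col24a1 and Col27a1 stayed above 2-fold in each cluster of at least 50 nuclei per library, in part on few UMIs. Col24a1 had 14 and 28 in cluster 19 (interval 0.23 to 2.25) and Col27a1 3 and 21 in cluster 20 (0.77 to 4.90). Both of these intervals reach below 2-fold. Signs turned for Col16a1 in CA1-like nuclei with doublets kept (-0.091) or nuclei thinned (-0.33), for Col4a2 in oligodendrocyte-like nuclei with doublets kept (0.057), and for Col6a3 (-2.82) and Col28a1 (-0.59) in CA3-like nuclei in the largest cluster alone, where they had 4 against 0 and 10 against 5 UMIs; the cause was not tested. The count of members 2-fold apart moved in male nuclei to 5 of 22 in CA1-like (5.86% of all genes), 2 of 22 in CA3-like (4.29%), 2 of 22 in dentate granule-like (5.76%) and 7 of 28 in inhibitory-like nuclei (1.96%). Thinning left 3 of 10 in CA1-like (6.75%) and 1 of 8 in oligodendrocyte-like nuclei (5.62%). Resolution 0.5 left 4 of 24 in CA1-like nuclei (7.13%), a class of nearly the same nuclei as its largest cluster alone. A minimum of 50 UMIs left 2 of 21 in CA3-like nuclei (2.94%); with 10 CPM as well, the counts were 2 of 6 in CA1-like (4.07%), 0 of 9 in CA3-like (1.82%), 1 of 6 in dentate granule-like (3.06%), 2 of 5 in oligodendrocyte-like (3.26%) and 0 of 7 in inhibitory-like nuclei (0.114%). The largest cluster alone gave 4 of 24 in CA1-like (7.14%), 0 of 26 in CA3-like (4.89%) and 2 of 29 in inhibitory-like nuclei (1.70%). TMM scaling moved ratios by -0.10 in CA1-like and CA2-like and by 0.10 in oligodendrocyte-like nuclei. No paired analysis was possible because each group had 1 library. Depth limits members under 50 UMIs, whose intervals often span more than 2-fold.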
